A study of Mus musculus with 47 samples.

Results

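The genes described here encode 10 auxiliary subunits of the AMPA and kainate types of ionotropic glutamate receptor. They are the cornichons Cnih2 and Cnih3, the CKAMP proteins Shisa6, Shisa7 and Shisa9, the transmembrane AMPA receptor regulatory proteins (TARPs) Cacng2, Cacng3 and Cacng8, and the kainate receptor partners Neto1 and Neto2. They were taken by name, 10 of the 22800 gene symbols in the read count table, and the summed reads of the AMPA receptor subunits Gria1 to Gria4 served as the reference. Each library was the cytosol of 1 neuron, drawn into a patch pipette from a brain slice of an NPY-hrGFP mouse aged 3 to 8 weeks, a strain in which a green fluorescent protein marks cells that use the neuropeptide Y (NPY) gene. The design text of the series calls the mice NPY-EGFP. The 26 cells used were all labelled NPY-positive, 10 from the auditory cortex (AC), 13 from hippocampal area CA3 and 3 from area CA1, with no treatment in any group. The study compared AC with CA3 and asked how far these interneurons differ in molecular make-up.

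AMPA receptors carry most fast excitatory transmission in the brain, and their pores are built from the Gria subunits. Auxiliary subunits bind to these pores, bring them to the cell surface and set how quickly the channels close and desensitize. TARPs and cornichons slow deactivation and desensitization, whereas Shisa9, also called CKAMP44, slows recovery from desensitization and so shapes responses to repeated stimulation. Neto1 and Neto2 act in the same way on kainate receptors, whose pores are built from the Grik subunits.

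The libraries held 1715012 to 6265431 reads per cell in AC, 2229519 to 7949918 in CA3 and 601781 to 3202430 in CA1, with 3163 to 6288, 3679 to 8149 and 4367 to 6095 genes read per cell. Neither the labels nor the paper tie a cell to one of the 8 mice, so each region was treated as 1 sample, and the differences have no replicate check and no p-value. SDs describe the spread over cells. Intervals are 95% intervals for counting error only, because amplified cDNA reads are not independent molecules. Of the GABAergic markers, Gad1, Gad2 and Npy were read in every AC and CA3 cell, and Slc32a1 in 5 of 10 AC and 12 of 13 CA3 cells. All were read in CA1 as well. The summed level of these markers was 4794 to 26500.1 CPM (reads scaled to 1e+06 per cell) in AC and 4376 to 16572 in CA3. Of 8 microglia markers 7 were read in both regions, at summed levels of 0 to 4476 CPM in AC and 0 to 2161 CPM in CA3, with Tmem119 at 0. Of 8 oligodendrocyte and precursor markers 3 were read in AC (0 to 367 CPM) and 5 in CA3 (0 to 1043 CPM), with Mog, Pdgfra and Cspg4 at 0.

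Of the members, Shisa9 stood out in AC, whereas Cnih2 had the highest level per exon length in both regions. Neto1 was read in CA3 and CA1 but in none of the 10 AC cells used, although 2 labelled AC cells outside these held reads of it. The levels below are log2(normalized count + 1), and a difference of at least 1 between the mean levels of AC and CA3 is spoken of as called. By this measure 1 member was higher in AC (Shisa9), 5 were higher in CA3 (Cnih2, Shisa6, Shisa7, Cacng2 and Neto1) and 4 were not called (Cnih3, Cacng3, Cacng8 and Neto2). Only for Shisa9 was the difference larger than the SD over cells in both regions, and for every member the AC and CA3 cells overlapped. The paper named Shisa9, Cnih2 and Neto1 from a set of cells that held these AC cells and, beside these CA3 cells, others that are not used here, so their place here is not independent evidence.

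These counts have to be read against all genes, most of which were also higher in CA3. Of the 4 members read in at least 10 of the 23 AC and CA3 cells (Cnih2, Shisa7, Cacng2 and Neto2), 3 were called higher in CA3 and 0 in AC. Of all 5964 genes read that often, 48.1% were called higher in CA3 and 15.4% higher in AC. Of the 6 members read in 3 to 9 cells, 2 were called higher in CA3 and 1 in AC, against 31.4% and 16.7% of 4666 genes. The median difference, AC minus CA3, was -1.04 over the 10 members, -0.91 over the genes read in at least 10 cells and -0.59 over the 10630 genes read in at least 3 cells. Of the called genes read in at least 10 cells, 24.2% were higher in AC on this scale and 45.5% when the reads of each region were summed to CPM. With the median of all genes subtracted it was 49.7%, which follows largely from the subtraction itself, as it sets the median of these genes to 0. A lean towards CA3 was thus shared with the table as a whole, and the direction of a member is given below on several scales.

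**Figure D1:**
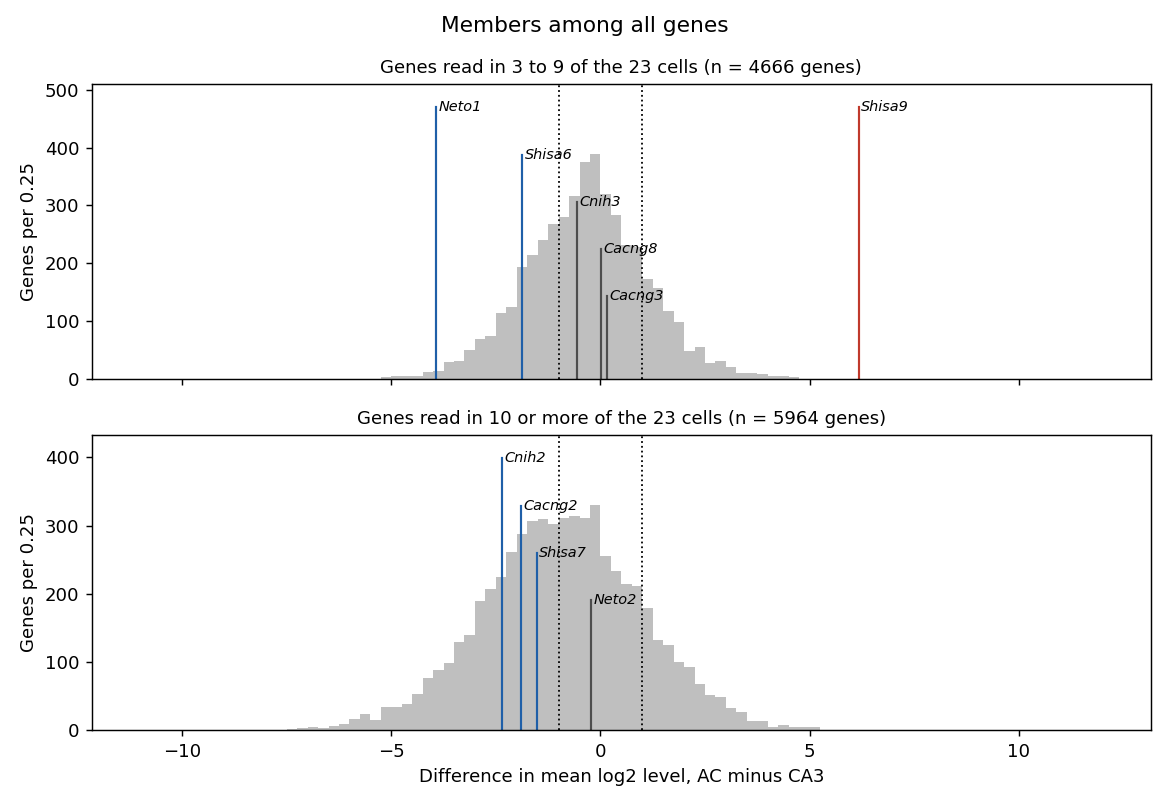
Differences between the mean log2 levels of AC and CA3 (AC minus CA3) for the members (coloured lines: red, called higher in AC; blue, called higher in CA3; grey, not called) among all genes (grey bars, genes per bin of 0.25), for genes read in 3 to 9 (top) and in 10 or more (bottom) of the 23 cells; dotted lines mark the call size of 1. Shisa9 lies at 6.18, far to the right of the bulk of genes, and Neto1 at -3.92 in the left tail, while Cnih2, Cacng2 and Shisa7 lie within the broad bulk of genes higher in CA3.

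Of the cornichons, Cnih2 (GRCm38 chromosome 19, 5092868 to 5098521, minus strand) promotes the surface delivery of AMPA receptors and slows their gating. Reads were found in 9 of the 10 AC cells and in all 13 from CA3. Its level per cell was 0 to 347 CPM in AC (median 128), 105 to 689 CPM in CA3 (median 312), and 276, 332 and 414 CPM in the 3 CA1 cells. The CA3 and CA1 cells were thus even, and the AC cells lower and more uneven, with no read in N3X and 6 reads in N46. With a mean level of 7.55 ± 3.39 (SD, 10 cells), AC differed by -2.36 from CA3, where the mean was 9.91 ± 0.82 (SD, 13 cells). Summed over cells, it was 152 CPM (147.9 to 156) in AC and 341.5 CPM (336 to 347) in CA3. Without N3X the difference shrank to -1.52, and relative to the median of all genes it was -1.45.

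Cnih3 (chromosome 1, 181352628 to 181460641, plus strand), a close relative with a like action, was read in few cells and at high levels in those. It had 746 reads in N3X of AC, 1150 in N29 and 1208 in N39 of CA3, 193 in N1 of CA1, and none in the other 22 cells. N3X, the single AC cell with Cnih3, was also the single cell of the 26 without a read of Cnih2. In N29, N39 and N1 both cornichons were read. The difference between the regions was -0.55 and was not called. It was -1.47 without N3X, 0.17 without N29 and 0.06 without N39.

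The CKAMP genes held the largest difference. Shisa9 (chromosome 16, 11984113 to 12270902, plus strand) had reads in 8 of the 10 cells from AC (80%, Clopper-Pearson interval 44.4 to 97.5%). Among the 13 from CA3 only 1 had any (7.69%, interval 0.195 to 36.03%). The AC cells held 1806 in N46, 1727 in N3X, 1654 in N41, 488 in N43, 289 in N4, 191 in N5, 15 in N7, 1 in N8, and 0 in N42 and N44. In CA3 the single cell was N29, with 3 reads. All but 1 of the AC cells with reads were above that CA3 cell, and N8, N42 and N44 overlapped with CA3. In CA1, N2X had 97 reads and N1 and N6 none.

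Mean Shisa9 levels of 6.33 ± 4.61 (SD) in AC and 0.15 ± 0.56 in CA3 gave a difference of 6.18. Summed over cells, it was 181 CPM (177 to 186) in AC and 0.061 CPM (0.013 to 0.179) in CA3, a ratio of 2951 (1009 to 14315, counting error only). The CA3 value was the 3 reads of N29, without which CA3 was at 0. Over all labelled cells there were 6797 reads in AC and 30 in CA3, at 123 and 0.565 CPM, a ratio of 218, which lies outside that interval. Leaving out 1 cell at a time moved the difference between 5.67 (without N46) and 6.88 (without N42). All labelled cells (19 from AC, 21 from CA3) gave a mean difference of 2.80. In the 13 AC and 14 CA3 cells of these with at least 10 Gad1 reads it was 5.14, with Shisa9 read in 9 and 1 cells. Of the markers read in at least 3 of the 23 cells, 2 of 4 astrocyte and 3 of 6 microglia markers were called higher in AC. None of these was called higher in CA3. Of the oligodendrocyte and precursor markers read that often, 0 of 3 were called higher in AC and 2 of 3 in CA3. Among all 10630 genes read that often, 15.95% were called higher in AC and 40.7% in CA3. Astrocyte markers reached a summed 0.303 to 3030 CPM in AC (7 of 8 read) and 0 to 660 CPM in CA3 (4 of 8), with Aqp4 at 0 in both. Pyramidal cell markers were read at a summed 0.229 to 190 CPM in AC (6 of 7, Emx1 at 0) and 0.400 to 383 CPM in CA3 (5 of 7, Neurod6 and Tbr1 at 0). Their median over cells was 68.03 CPM in AC and 9.29 CPM in CA3. Of the 4 read in at least 3 cells, 2 were called higher in AC and 0 in CA3. N46, the AC cell with the most Shisa9 reads, was also the highest AC cell in pyramidal markers and held 59.5% of the AC reads of Slc17a7 and 99.9% of those of the astrocyte marker Gja1. Without N46 the Shisa9 difference was 5.67, as given above. The part of these cells in the Shisa9 difference was not tested.

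Shisa6 (chromosome 11, 66211725 to 66525964, minus strand), which keeps AMPA receptors at the postsynaptic membrane, was read in CA3 and nowhere else among the 26 cells. It had 125 reads in N40, 86 in N32, 35 in N29, 9 in N39, and 2 each in N26 and N30. The AC cells had no read, against a limit of 0.0881 CPM set by 3 reads over the summed AC reads, and CA3 held 5.30 CPM (4.68 to 5.99). In the pooled reads AC was therefore at least 60.2-fold lower, a limit for counting error only. By cells, 0 of 10 had reads in AC (interval 0 to 30.8%) and 6 of 13 in CA3 (19.2 to 74.9%), and these intervals overlapped. The 7 CA3 cells without reads overlapped with AC, and the level in CA3 was low. Without N40, which held 48.3% of the CA3 reads, the limit was 34.1-fold. The mean difference was -1.87, and -0.97 relative to all genes.

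Shisa7 (chromosome 7, 4825552 to 4844696, minus strand), which has been described at both AMPA and GABA-A receptors, had reads in 6 of the 10 AC cells and in 11 of the 13 from CA3. In AC it ranged from 0 to 252 CPM (median 0.306), in CA3 from 0 to 157 CPM (median 3.35), and in CA1 it was read in N2X alone (388 CPM). AC cells were either high (N42 with 968 reads and N5 with 239) or had 29 reads or fewer, and N42 held 77.6% of the AC reads. The mean difference was -1.52, and -2.33 without N42. Summed CPM gave the opposite direction, 36.6 CPM in AC and 29.2 CPM in CA3, but AC was 9.23 CPM without N42.

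**Figure D2:**
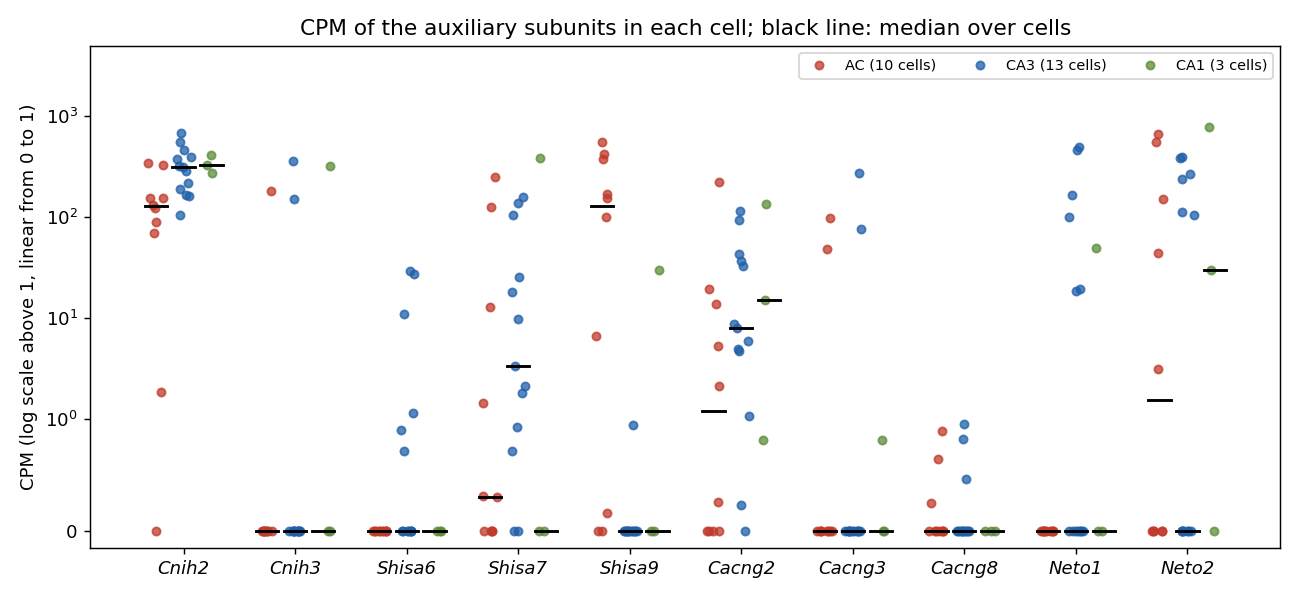
CPM of each member in each of the 10 AC (red), 13 CA3 (blue) and 3 CA1 (green) cells, on an axis that is logarithmic above 1 and linear from 0 to 1; the black line is the median over cells. Shisa9 is above 1 CPM in 7 AC cells and in no CA3 cell, Neto1 and Shisa6 are at 0 in all AC cells, and Cnih2 is above 100 CPM in all 13 CA3 cells.

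Of the TARPs, Cacng2 (stargazin; chromosome 15, 77991748 to 78120028, minus strand) was the most widely read. Reads of it came from 6 AC cells, from 12 of the 13 CA3 cells and from all 3 CA1 cells. Its level was 0 to 223 CPM in AC (median 1.19), 0 to 114 CPM in CA3 (median 7.89), and 0.813, 14.96 and 134 CPM in CA1. Many cells thus had a few reads and a few had many: N46, with 724 reads, held 84.7% of the AC reads. The mean difference was -1.91, and it was -1.0005, at the edge of a call, relative to all genes. In summed CPM the regions were alike, at 25.1 CPM (23.5 to 26.8) in AC and 24.5 CPM (23.2 to 25.97) in CA3, so the mean level and the summed reads did not give the same order. Without N46, AC was 4.25 CPM.

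Cacng3 (chromosome 7, 122670492 to 122769393, plus strand), a TARP of cortical and hippocampal neurons, was read in 4 of the 23 cells. It had 220 reads in N7 and 92 in N5 of AC, and 977 in N31 and 382 in N34 of CA3. A single read in N6 was all that CA1 held. The difference of 0.16 was not called, and it turned to -0.57 without N7 and -0.47 without N5. The scales gave opposite calls, higher in CA3 by summed CPM (9.16 CPM in AC and 27.8 CPM in CA3) and higher in AC relative to all genes (1.07). Single cells set both sums: AC was 2.89 CPM without N7, and CA3 was 8.44 CPM without N31, which ends the call by summed CPM. Cacng8 (chromosome 7, 3390683 to 3415648, plus strand), abundant in hippocampal pyramidal cells, never exceeded 3 reads in any of the 26 cells. It held 5 reads in AC (0.147 CPM) and 8 in CA3 (0.164 CPM), and with these counts no difference was detectable.

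Neto1 and Neto2 are transmembrane proteins that slow the gating of kainate receptors. Neto1 had no read in the 10 AC cells, a limit of 0.0881 CPM. In CA3 it had 1254 reads in N27, 1092 in N28, 595 in N31, 315 in N32, 93 in N34 and 83 in N37, and no read in the other 7 cells. In CA1, N6 had 61. The summed level was 70.2 CPM (67.9 to 72.6) in CA3. AC was thus at least 797-fold lower in the pooled reads, a limit for counting error only. By cells, 0 of 10 had reads in AC (interval 0 to 30.8%) and 6 of 13 in CA3 (19.2 to 74.9%), and these intervals overlapped. The mean difference was -3.92. Over all labelled cells there were 1283 reads in AC and 3432 in CA3, at 23.3 and 64.7 CPM, a ratio of 2.77. The CA3 cells with Neto1 thus all had at least 83 reads, and the other 7 overlapped with AC at 0. Outside the 10 cells used, the AC cell N45 had 999 Neto1 reads beside 10339 of Gad1, and the AC cell N48 had 284 beside none of Gad1. With the cells holding at least 10 Gad1 reads the difference was -2.72, and with all labelled cells -1.39.

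Neto2 (chromosome 8, 85636588 to 85700924, minus strand) had similar levels in both regions. Of the AC cells 5 had reads (2912 reads in N41, 1727 in N43, 956 in N8, 147 in N44 and 7 in N7), and of the CA3 cells 6 (292 to 3084 reads). In CA1, N1 had 474 reads and N2X 95. The summed level was 169 CPM in AC and 142 CPM in CA3, and without N41 that of AC was 95.6 CPM. In CA3 it was 94.7 CPM without N39. The mean levels were 4.21 ± 4.95 (SD) and 4.43 ± 5.01. The difference of -0.22 was far below the spread over cells, and it was -1.04 without N41 and 0.29 without N31. In CA3 the 2 Neto genes shared 2 cells (N27 and N31), 4 cells had Neto1 alone, 4 had Neto2 alone and 3 had neither.

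**Figure D3:**
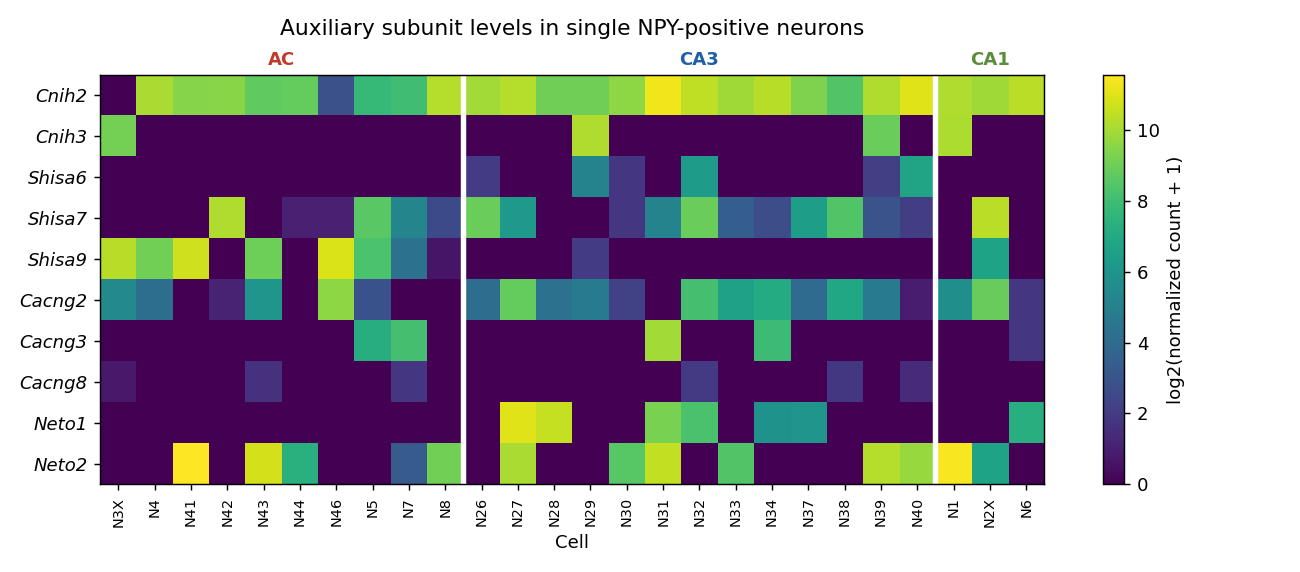
Levels, as log2(normalized count + 1), of the 10 members (rows) in the 26 cells (columns, grouped by region); dark cells are at 0 reads. Cnih2 fills its row except in N3X of AC, at 0, and is low in N46 of AC (2.88, from 6 reads). Shisa9 is confined to AC except for N29 and N2X, and the remaining rows are patchy.

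The use of the members was uneven from cell to cell. Of the 230 values of 10 members in 23 cells, 128 (55.7%) were at 0 reads, 24 were at 1 to 9 reads, and 60 were at 100 reads or more and held 98.4% of the reads. A cell held reads of 4 ± 1.05 members (SD, 3 to 6) in AC, of 4.77 ± 0.93 (3 to 6) in CA3, and of 4, 5 and 4 in the CA1 cells N1, N2X and N6. No pair of the 23 AC and CA3 cells held the same set of members, and with a limit of 10 reads there were still 19 different sets. After all cells were thinned to the lowest total of 1715012 reads, a mean of 3.5 members remained in AC and of 4.69 in CA3. Reads that were not captured from a single cell cannot be told apart here from genes that were not used.

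Pairs of members in the same cell were counted next. Cnih2 met Shisa9 in 7 AC cells, 2 (N42 and N44) had Cnih2 without Shisa9, and N3X had Shisa9 without Cnih2. In CA3 the pair met in 1 of 13 cells. Cnih2 met Cacng2 in 5 AC cells and in all but 1 of the CA3 cells, and met Neto1 in 6 CA3 cells. Because Cnih2 was read in nearly every cell, these counts follow the cells in which the partner was read.

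To compare members with each other, reads were divided by the length of the gene's merged exons. On this scale (CPM per kb) Cnih2 led with 111 in AC, 249 in CA3 and 231 in CA1. In AC it was followed by Shisa9 with 34.6, Neto2 with 27.5, Cnih3 with 7.96, Shisa7 with 5.52, Cacng2 with 4.56 and Cacng3 with 3.30. In CA3 it was followed by Neto2 with 23.2, Cnih3 with 17.5, Cacng3 with 10.02, Neto1 with 8.41, Cacng2 with 4.45 and Shisa7 with 4.396. Shisa9 thus stood in the second place in AC and last in CA3, at 0.012. Single cells set the order further down: without the cell with the most reads of each gene, the AC values were 27.03 for Shisa9, 15.6 for Neto2, 1.39 for Shisa7, 1.04 for Cacng3, 0.772 for Cacng2 and 0 for Cnih3. In CA3 the same step left 15.4 for Neto2, 10.2 for Cnih3, 5.63 for Neto1, 3.59 for Cacng2, 3.07 for Shisa7 and 3.04 for Cacng3.

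Cell by cell, Cnih2 was the leading member per kb in 8 AC cells, in 12 CA3 cells and in all 3 CA1 cells. The exceptions were N3X and N46 of AC, led by Shisa9, and N29 of CA3, led by Cnih3. Cnih2 has the shortest merged exons of the members (1369 bases, against 8352 for Neto1), and by reads without division it led in 3 AC cells, 9 CA3 cells and 1 CA1 cell. The cornichons made up 55.0% of member reads per kb in the median AC cell (0.912 to 92.5%) and 88.5% in the median CA3 cell (64.1 to 98.8%). The CKAMP genes made up 19.01% (0.047 to 71.7%) in AC and 0.651% (0 to 15.9%) in CA3. The TARPs made up 1.04% (0 to 34.04%) and 0.610% (0.054 to 14.2%). The Neto genes made up 0.243% (0 to 41.01%) in AC, where 5 cells were above 0, and 7.10% (0 to 31.4%) in CA3, where 10 were. The medians of the Neto genes and the TARPs rested on few cells: with 1 cell left out, those of the Neto genes ran from 0 to 0.485% in AC and from 5.06 to 7.91% in CA3, and those of the TARPs from 0.348 to 1.73% and from 0.599 to 1.44%. The means of the Neto genes were 9.47% and 9.22%, so the median and the mean did not give the same picture.

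**Figure D4:**
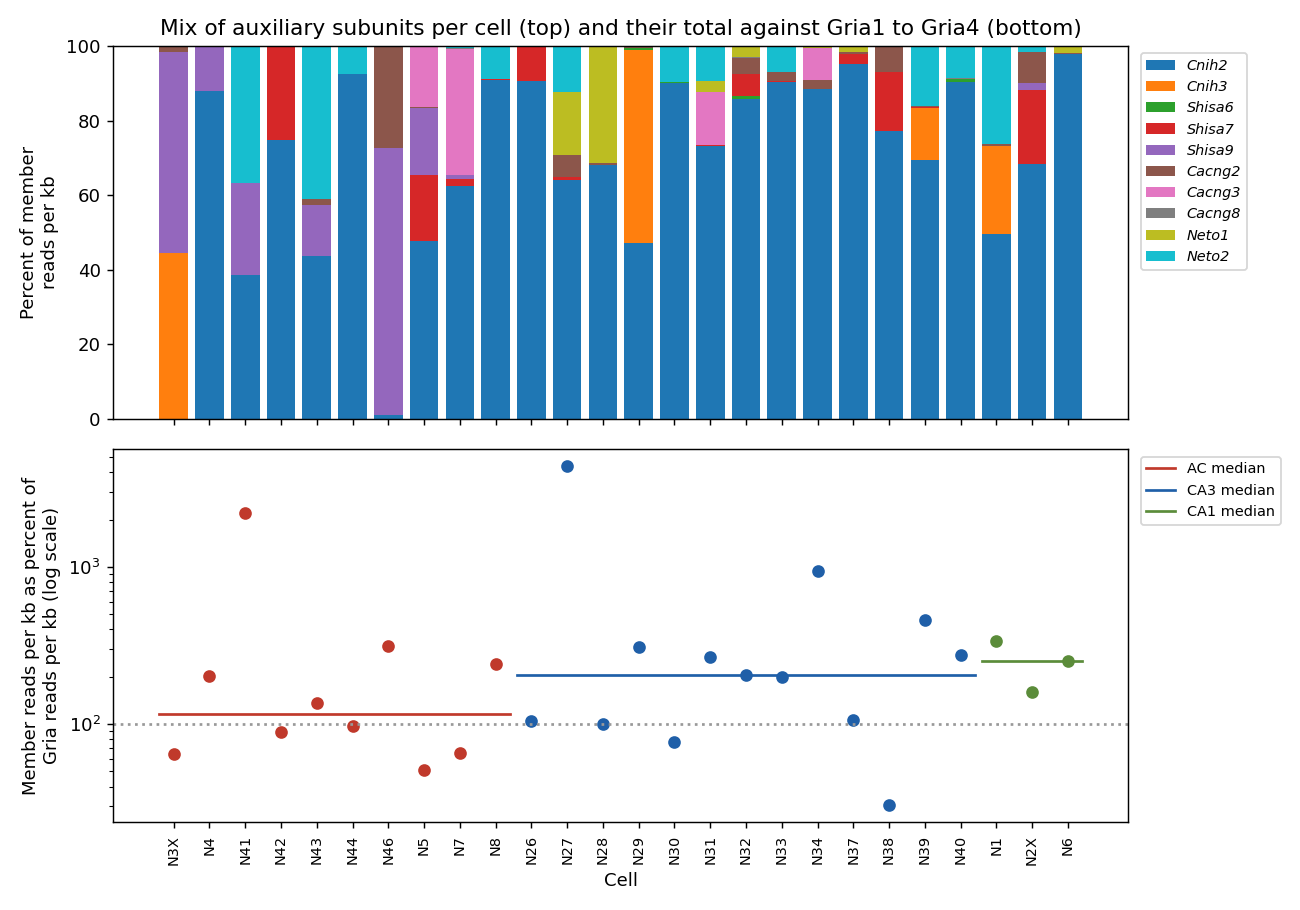
Top, share of each member in the member reads per kb of each cell, in percent; bottom, member reads per kb as a percent of Gria1 to Gria4 reads per kb, on a log axis, with a line at the median of each region and a dotted line at 100%. Cnih2 (blue) is the largest part of each bar except in N3X, N46 and N29. In N41, N43, N5 and N1 it holds 38.7, 43.7, 47.6 and 49.5%. The points of the regions overlap, with N41 at 2208% and N27 at 4358% on top.

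The auxiliary subunits were next set against the receptor pores. Their summed reads per kb came to a median of 117% of those of Gria1 to Gria4 in AC, from 51.2% in N5 to 2208% in N41. In CA3 the median was 205%, from 30.4% in N38 to 4358% in N27. The CA1 cells N1, N2X and N6 had 339, 161 and 252%. The medians differed by less than the range within either region. With each cell left out in turn they stayed within 97.7 to 136% in AC and 202 to 236% in CA3. N41 and N27 were at the top with few Gria reads, 353 and 158, and with 5249 and 3040 member reads. Without the Neto genes the medians were 89.8% in AC and 198% in CA3. Without division by length the medians were 37.7% in AC, 67.3% in CA3 and 67.8% in CA1.

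The pores themselves differed between the regions. Gria1 was 31.4 CPM per kb in AC and 97.3 in CA3, with a level difference of -2.14. Gria2, the subunit that makes the channel impermeable to calcium, was 36.2 and 15.2 CPM per kb, with a difference of 1.72. Gria3 was 14.8 and 2.86 CPM per kb, with a difference of 2.78, and Gria4 was 45.3 and 32.4, with a difference of -0.53 that was not called. Of the 5 kainate receptor genes, Grik2 was called higher in AC (3.77), Grik5 higher in CA3 (-1.32) and 3 were not called. Relative to all genes Grik5 was at -0.41 and no longer called. The Neto genes came to 0 to 199% of the Grik reads per kb in AC, with 5 of 10 cells at 0, and to 0 to 1591% in the 12 CA3 cells with Grik reads, 3 of them at 0, and all of these CA3 cells but N28 and N31 lay within the range of AC. N27, with the most Neto1 reads, had no Grik read.

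Of 19 other AMPA receptor partners, 2 were called higher in AC, 6 higher in CA3 and 11 were not called, with a median difference of -0.57. Of all 10630 genes read in at least 3 cells, 15.95% were called higher in AC and 40.7% higher in CA3, and the 15 partners read that often, 2 and 6 of them called, were close to these shares. Olfm2, a secreted olfactomedin found in AMPA receptor complexes, had the largest of these differences (-5.53), with 1.92 ± 3.42 (SD) in AC and 7.45 ± 3.43 in CA3. Porcn and Cpt1c, which act on receptors in the endoplasmic reticulum, had -2.62 and -2.22, and Prrt1 (SynDIG4) had -1.33. Relative to all genes Prrt1 was at -0.43 and no longer called, and by summed CPM all 3 were higher in CA3 by less than the call size (ratios of 1.252, 1.135 and 1.351). Nptxr, a neuronal pentraxin receptor, had 1.31 and Prrt2 had 1.17. Of the related TARP and CKAMP genes, Shisa8 had no read in any of the 26 cells. Of 11 scaffold and trafficking genes, 3 were called higher in AC and 3 in CA3. Among them Grip2 (3.60) and Dlg3 (SAP102, 2.48) were higher in AC, and Dlg1 (SAP97, -2.27), Pick1 (-2.05) and Epb4.1l1 (-1.44) higher in CA3. By summed CPM, Dlg1 and Epb4.1l1 turned to AC (ratios of AC to CA3 of 1.013 and 1.081) and Dlg3 was not called (1.51), and relative to all genes Epb4.1l1 was at -0.53 and not called.

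For the 4 members with reads in 10 or more of the 23 cells, genes with the most similar pattern over cells were sought among 5964 genes, by Pearson's r over 23 cells after the mean of each region had been subtracted. Cnih2 was nearest to Snap47 (0.92), Cd81 (0.89) and Ran (0.80). These values rested on N3X and N46, the AC cells lowest in Cnih2, and without both they were 0.39, -0.03 and 0.21. Shisa7 was nearest to Rrn3 (0.73), Mri1 (0.67) and Smarca1 (0.64), Cacng2 to Pin4 (0.71), Gm27027 (0.71) and Fam192a (0.70), and Neto2 to Anxa7 (0.70), Map1lc3b (0.68) and Rtn1 (0.68). No member was among the 3 nearest genes of another. Between members, r was -0.51 for Cnih2 and Cacng2, 0.42 for Cnih2 and Neto2, -0.37 for Cacng2 and Neto2, -0.31 for Shisa7 and Neto2, 0.17 for Cnih2 and Shisa7 and -0.01 for Shisa7 and Cacng2. Without N3X and N46, Cnih2 had -0.22 with Cacng2, 0.44 with Neto2 and -0.14 with Shisa7. The cells share depth and many values of 0, and these values are descriptions of the largest r among many genes.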

How the data were processed

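Raw read counts per gene were deposited by the authors as 1 table of 47 cells. The paper names Trimmomatic and Flexbar for trimming, STAR with GRCm38 for alignment and HTSeq for counting, whereas the submitters' processing notes name featureCounts. Symbols came from Ensembl version 86, and identifiers that shared a symbol had their counts averaged. The libraries were made with Nextera XT from polyA RNA. Whether counting used strand is not given in the sources used here.

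Members, gene lists and cells were chosen with earlier results of these data known. The 10 AC and 13 CA3 cells were those that an earlier pass had matched to the study's heat maps by colour, of 20 and 21 labelled columns. The match found all AC cells of the study but only part of its CA3 cells. N4 and N4X were averaged as 1 cell where all labelled cells were used (19 AC cells). The dentate gyrus and NPY-negative cells were used in no comparison.

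Counts of the 26 cells were divided by scran 1.30.0 size factors (R 4.3.3, pools of 10 and 20 cells). A level is the log2 of that value plus 1. As no source names the mouse of a cell, no test was run. The size of a call, 1 on the log2 scale, was read against all genes in bins of 3 to 9 and of 10 or more cells with reads. Summed reads have exact Poisson and shares of cells exact Clopper-Pearson 95% intervals, and a value of 0 has a limit of 3 reads. Lengths and coordinates came from the GENCODE M21 annotation of GRCm38, by symbol. Named beside the members were Gria1 to Gria4, up to 6 genes per other list with a call and reads in at least 10 cells, the 3 genes most like each member read in at least 10 cells, and the markers that checked the cells. Alternatives were TMM factors (edgeR 4.0.16), poscounts factors (DESeq2 1.42.0), library size, pseudocounts of 10 and 0.1, summed CPM, the median of all genes subtracted, thinning to 1715012 reads, all labelled cells, other lengths and read limits, and each cell left out. Labelled cells with at least 10 Gad1 reads were added after the data were seen. The scripts were tested on simulated data. Some marker genes are not reported here.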

Additional observations from a re-analysis of the deposited data

Results flagged for a closer look

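Of 12 values examined in the AC cells for a cell far from the others, 2 stood apart by Dixon's criterion. Chance meets it in about 1 in 20 groups of normally distributed values. The values here were not shown to be normally distributed, and many levels were 0, so that rate is a rough guide only. CA3, with 13 cells, was not examined. The Cnih3 level of N3X was 9.12 and all other AC cells were at 0, a case in which any single cell with reads meets the criterion, so that rate does not apply to it. The summed members stood at 2208% of Gria reads per kb in the AC cell N41, and the CA3 cell N27 stood at 4358%. Outside the regions compared, the dentate gyrus cell N12, with 190573 reads and no Gad1 read, held 231 CPM of members, above its limit of 15.7 CPM, from 36 reads of Shisa9 and 8 of Shisa6.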

How the results depend on the processing

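No paired analysis was possible because no test was run and no source pairs cells across regions. Members called higher in AC were 1, but 2 (Shisa9 and Cacng3) with the median of all genes subtracted or in all labelled cells. Members called higher in CA3 were 5, but 2 with a pseudocount of 10 (Cnih2 and Neto1), 3 with the median subtracted, 3 in all labelled cells (Cnih2, Cacng2 and Neto1 both times), 4 in the labelled cells with Gad1 (without Shisa7, at -0.98), and 5 to 6 with 1 cell left out. With summed CPM, 5 were called, 3 of them shared with the main 5 and the others Cnih3 (-1.14) and Cacng3 (-1.60), and Shisa7 and Cacng2 turned to 0.33 and 0.033. Of the calls in genes read in at least 10 cells, 12.2% were higher in AC with all labelled cells. The auxiliary to Gria ratio in CA1 was 67.8% with no division by length. Members read per cell in AC were 2.80 at a limit of 10 reads and 2.84 in all labelled cells, and in CA3 3.29 in all labelled cells. The causes were not tested. Shisa9, Cnih2 and Neto1 kept direction and call under every alternative run. Over cells left out singly, every member that was not called changed sign. The ranges were -1.47 to 0.17 for Cnih3, -0.57 to 0.87 for Cacng3, -0.13 to 0.15 for Cacng8 and -1.04 to 0.29 for Neto2.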

Other observations

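Members were read in 6 of the 9 labelled AC cells and 5 of the 8 labelled CA3 cells that were not among the 26. The AC cell N45, with 5265115 reads and 10339 of Gad1, held 7 of the 10 members: Neto2 with 2767 reads, Neto1 with 999, Cnih2 with 703, Shisa9 with 483, Cacng3 with 474, Shisa7 with 24 and Cacng2 with 5. It thus held Neto1 and Shisa9 together, which none of the 23 AC and CA3 cells did. The AC cell N47 (5703 Gad1 reads) held 76 reads of Shisa7 and 50 of Cacng2 and none of Gria1 to Gria4. The CA3 cell N36 (40427 Gad1 reads) held 1447 of Cnih2, 19 of Cacng2 and 1 of Neto2. The CA3 cells N13 and N15, with no Gad1 read, held 19 and 8 reads of Shisa9. The NPY-negative CA3 cell held no member read.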
